A study of Homo sapiens with 2 samples.

Results

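JUNB peaks were examined around 10 genes that supply or receive growth and angiogenic signals in fibroblasts: FGF2, FGF5, FGF7, FGF10, HGF, VEGFA, VEGFC, CXCL12, PDGFRA and PDGFRB. They are 10 of the 19970 protein-coding genes on chromosomes 1 to 22 and X in the RefSeq annotation of GRCh38. All 10 were found there by symbol. A peak was assigned to a gene when its summit, the position of strongest signal, lay inside the gene span or within 50 kb of it. This gave 38 of 32550 untreated peaks and 28 of 25739 etoposide peaks. The list is named for secreted factors, and 8 of its genes encode secreted proteins, whereas PDGFRA and PDGFRB encode receptors in the cell membrane.

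IMR-90 is an established line of human lung fibroblasts, and JUNB was profiled in it by CUT&RUN, in which an antibody guides a nuclease to its target in permeabilised cells and the released DNA is sequenced. The untreated condition and the etoposide condition each had 1 library. Etoposide poisons topoisomerase II, breaks DNA and is used to bring cultured cells into senescence. Both libraries were made with the same JUNB antibody, and the labels give no etoposide dose or exposure time. The peak names carry unlike prefixes in the 2 lists, which the labels do not explain, so whether the libraries differed in more than etoposide was not checked. Since each condition had a single library, differences have no replicate check and the treatment was not tested. Peak lists hold no expression values, so the cell type was not checked against marker genes and the levels of these genes were not measured.

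JUNB is a subunit of AP-1, a dimeric transcription factor whose usual DNA core is TGANTCA, and it binds mainly at enhancers in fibroblasts. Fibroblasts instruct neighbouring epithelium and vessels through secreted ligands. FGF7, FGF10 and HGF act on epithelial cells, VEGFA and VEGFC on blood and lymphatic endothelium, and CXCL12 attracts cells that carry CXCR4. PDGFRA and PDGFRB receive platelet-derived growth factor and are classical receptors of the fibroblast itself. Several such factors belong to the secretory programme of senescent cells.

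RefSeq promoter windows of GRCh38.p14, each from 250 bases before a transcription start to 50 bases after it, were on hand for 9 of the 10 genes, 11 windows in all, and VEGFA was not among them. No JUNB peak of either library touched any of the 11 windows. Over all 34961 windows, 8.90% were touched by an untreated and 2.84% by an etoposide peak. The AP-1 core TGANTCA, which reads the same on both strands, was present in 1 of the 11 windows, and 7.68% of all windows held it. The stricter forms TGAGTCA and TGACTCA, which are a single motif read on either strand and are contained in TGANTCA, were in 0 of the 11 and in 4.92% of all windows. The 250 bases before the start are shown, 5′ to 3′ on the gene's own strand, for PDGFRA as the gene with the match, and for FGF5 and VEGFC as the genes with a peak closest before their start. Capitals mark TGANTCA.
PDGFRA, chr4:54229043-54229292, plus strand: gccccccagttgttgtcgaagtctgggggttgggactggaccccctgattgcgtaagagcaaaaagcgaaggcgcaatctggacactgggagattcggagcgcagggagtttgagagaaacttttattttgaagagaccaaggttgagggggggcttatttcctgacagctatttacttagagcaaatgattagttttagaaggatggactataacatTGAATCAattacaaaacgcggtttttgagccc
FGF5, chr4:80266338-80266587, plus strand: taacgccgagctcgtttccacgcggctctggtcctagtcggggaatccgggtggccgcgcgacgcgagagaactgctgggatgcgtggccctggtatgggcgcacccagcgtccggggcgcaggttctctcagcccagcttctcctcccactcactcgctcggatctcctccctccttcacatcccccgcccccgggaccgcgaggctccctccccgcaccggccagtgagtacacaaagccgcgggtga
VEGFC, chr4:176792923-176793172, minus strand: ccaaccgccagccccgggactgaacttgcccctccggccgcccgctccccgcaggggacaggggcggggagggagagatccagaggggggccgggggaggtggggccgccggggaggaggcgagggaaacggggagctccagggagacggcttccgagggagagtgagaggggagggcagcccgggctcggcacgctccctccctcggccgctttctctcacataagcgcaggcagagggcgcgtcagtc
The PDGFRA match reads TGAATCA and begins 32 bases before the start, and the closest peak edge lay 11122 bp from the window in untreated cells and 48589 bp from it after etoposide. The FGF5 and VEGFC stretches held no match. G and C made up 46.8% of the PDGFRA stretch, 68.8% of the FGF5 stretch and 74.0% of the VEGFC stretch. A match is a run of letters and does not show a bound site, and bound sequence under the peaks themselves was not read here.

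JUNB peaks lay near 8 of the 10 genes in the untreated library and near 8 of 10 in the etoposide library. Over all protein-coding genes the same window held an untreated peak at 72.0% and an etoposide peak at 62.6%. At 7 genes (FGF2, FGF5, FGF7, HGF, VEGFC, PDGFRA and PDGFRB) there was a place bound in both libraries, meaning that peaks of the 2 lists had at least 1 bp in common, and 51.1% of all genes had such a place. CXCL12 had an untreated peak alone, which was true of 13.5% of all genes, and VEGFA had etoposide peaks alone, true of 4.05%. FGF10 had none in either library, as did 23.9% of all genes. A summit lay inside the gene at the same 6 genes in both libraries (FGF2, FGF7, HGF, VEGFC, PDGFRA and PDGFRB), against 33.4% of all genes untreated and 27.7% with etoposide. The 10 genes are longer than most, with a median span of 67.2 kb against 24.2 kb over all genes, so they offer peaks more room. Per Mb of window the median was 15.8 untreated and 19.3 etoposide peaks, against 9.91 and 8.05 over all genes. Over the summed windows of the 10 genes the order of the libraries was the other way round, with 24.2 untreated and 17.8 etoposide peaks per Mb, against 14.2 and 10.03 over all genes.

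**Figure D1:**
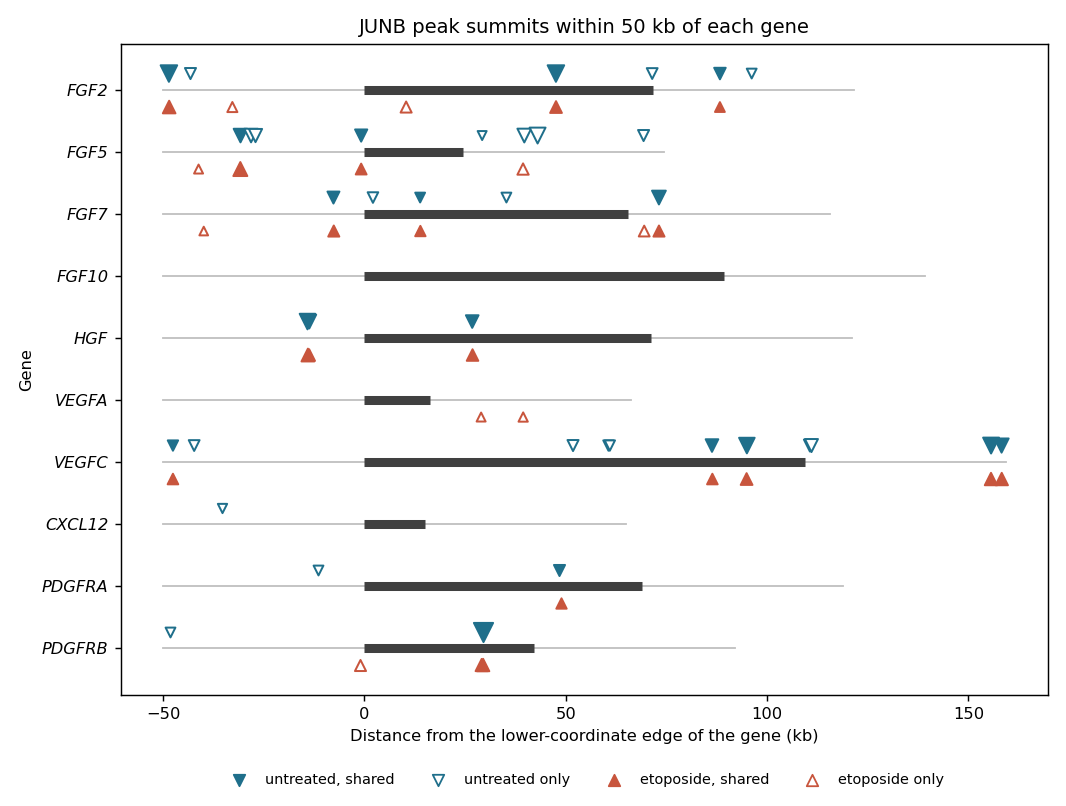
Positions of JUNB peak summits around each gene, in kb from the lower-coordinate edge of the gene (x axis), for the 10 genes (y axis). Thick bars are gene spans, thin lines the 50 kb on either side, downward blue triangles untreated and upward red triangles etoposide summits, filled where the other library has an overlapping peak; triangle area grows with the number of fragments at the summit. Summits pile up at VEGFC, FGF5 and FGF2, and FGF10 has none.

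Joined across the libraries, the peaks formed 47 places, of which 18 were bound in both libraries, 20 in the untreated library alone and 9 in the etoposide library alone. Of the 38 untreated peaks, 18 were shared, 47.4% (exact 95% binomial interval 31.0% to 64.2%), and 51.0% of all untreated peaks were. Of the 28 etoposide peaks, 19 were shared, 67.9% (47.6% to 84.1%), and 64.8% of all etoposide peaks were. Both background shares lie inside these intervals, which cover counting error only. Of the 18 shared untreated peaks, 7 had their summit inside the gene, and each of the 6 genes with a summit inside had at least 1 of these.

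**Figure D2:**
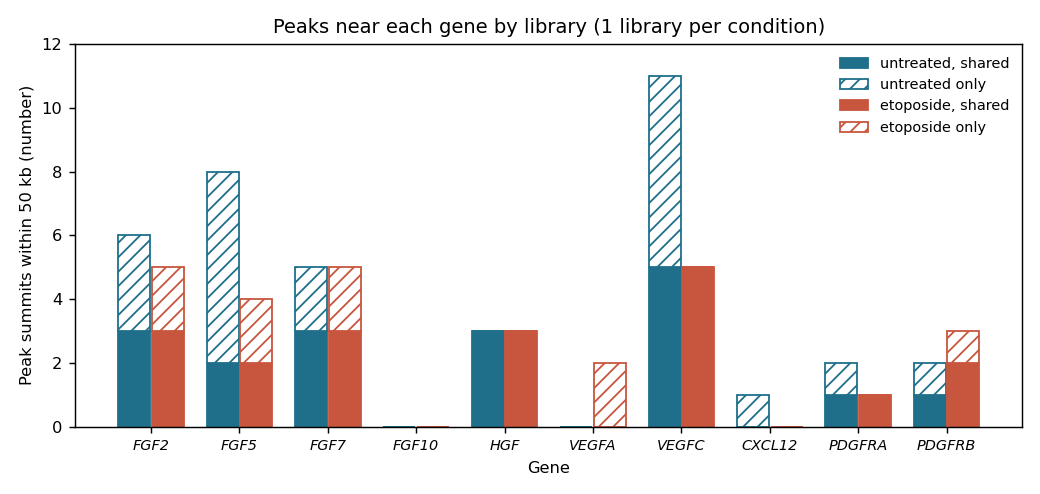
Number of peak summits within 50 kb of each gene (y axis) by gene (x axis), untreated in blue and etoposide in red, with shared peaks solid and peaks of a single library hatched. VEGFC has 11 untreated and 5 etoposide peaks and FGF5 has 8 and 4, whereas FGF7 has 5 and HGF 3 in either library.

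The strength of a peak is given as the number of fragments stacked at its summit, which follows from the deposited fold and its -log10 p, and as its rank by -log10 q in its own list, where rank 1 is the strongest. The list medians were 15 fragments untreated and 13 etoposide. Read totals are not part of a peak list. The lowest local background, the caller's estimate of how many fragments would stack by chance, was 0.482 untreated and 0.377 with etoposide (ratio 0.782). At shared peaks over the whole lists the median ratio of etoposide to untreated fragments was 0.778, so a ratio near that value is the typical one for these libraries.

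Among the FGF ligands, FGF2, the basic fibroblast growth factor that drives fibroblast and endothelial proliferation, had 6 untreated and 5 etoposide peaks on chromosome 4. At least 6 untreated peaks were found at 9.85% of all genes, and at least 5 etoposide peaks at 8.39%, shares that are not matched for gene length. The place inside the gene, 47.5 kb from its start, had an untreated peak at chr4:122874009-122874717 with 45 fragments (exact Poisson 95% interval 32.8 to 60.2) and rank 1227. Its etoposide peak, with the summit 24 bp away, had 19 fragments (11.4 to 29.7) and rank 6767. The 2 intervals do not overlap, on raw counts that were not scaled between the libraries. The local background was also lower there in the etoposide library, 1.70 against 3.76. A second shared place lay 48.6 kb upstream at chr4:122777810-122778590. It had 45 untreated fragments and rank 530, and 23 etoposide fragments (14.6 to 34.5) and rank 1928. The nearest gene to that place was BBS12, a gene of the ciliary chaperonin-like complex, at 33.2 kb.

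The third shared place of FGF2 lay 16.7 kb beyond the gene's end inside NUDT6, with 18 untreated and 11 etoposide fragments. NUDT6 overlaps the end of FGF2, and its transcript is known as an antisense to FGF2. An untreated peak without counterpart sat in that overlap at chr4:122898108-122898448 with 15 fragments and rank 29912. A further untreated peak without counterpart, at chr4:122922521-122922973 with 11 fragments, overlapped promoter windows of NUDT6 and of its neighbour AFG2A. The strongest untreated peak of the window without counterpart, 43.2 kb upstream, had 16 fragments. The etoposide library alone had a peak inside the gene 10.4 kb from its start, at chr4:122836953-122837185 with 16 fragments and rank 7935, and another 32.8 kb upstream with 12. Untreated peaks without counterpart near FGF2 thus stood at 11 to 16 fragments, below all its shared places in that library. In the etoposide library the peaks without counterpart had 16 and 12 fragments, and the shared places had 23, 19 and 11.

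FGF5, a ligand known for ending the growth phase of the hair follicle, had 8 untreated and 4 etoposide peaks and no summit inside the gene. A shared place stood 0.813 kb before its start, at chr4:80265500-80265904 in the untreated list, with 21 fragments (13.0 to 32.1) and rank 9720. The etoposide peak at chr4:80265662-80265870 had its summit 2 bp away, 15 fragments (8.40 to 24.7) and rank 9322. This was the shared place closest to any start among the 10 genes, 434 bp from the promoter window printed above. A second shared place 30.8 kb upstream had 28 untreated fragments (rank 17595) and 30 etoposide fragments (rank 3148, the best of this window in that list). The local background there was 5.82 untreated and 3.35 with etoposide.

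The remaining 6 untreated and 2 etoposide peaks near FGF5 had no counterpart. Among them was the strongest peak of a single library near any of the 10 genes by number of fragments, an untreated peak 18.6 kb beyond the end at chr4:80309448-80309720 with 41 fragments (29.4 to 55.6) and rank 4695. It stood on a local background of 6.22 fragments, where the median of the untreated list was 1.27. High local background ran through this window: 5 of the 8 untreated and 2 of the 4 etoposide peaks had more than 3 times the median of their list, as did 9 of the 38 untreated and 2 of the 28 etoposide peaks near the 10 genes, and 4.01% of all untreated and 3.22% of all etoposide peaks. The other 4 untreated peaks of this kind were 3 near VEGFC and the shared peak of PDGFRB. Its part in the FGF5 peaks without counterpart was not tested. The peak 4.80 kb beyond the end, the only single-library peak within 10 kb of FGF5, had 8 fragments and rank 32439 of 32550. The etoposide peak at chr4:80305823-80306084 and the untreated peak at chr4:80306182-80306394 were close neighbours, and each counts as without counterpart because they did not overlap. The untreated peak with 41 fragments was nearer to CFAP299, at 11.7 kb, than to FGF5. Another untreated peak without counterpart, 44.9 kb beyond the end of FGF5, lay inside CFAP299 and overlapped a promoter window of that gene.

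FGF7, the keratinocyte growth factor made by mesenchyme for epithelium, had 5 peaks in each library and 3 shared places on chromosome 15. Its span lies inside that of FAM227B, so every one of these peaks also fell in FAM227B. The shared place strongest in the untreated list was 7.59 kb beyond the end, at chr15:49496274-49496762, with 29 fragments (19.4 to 41.6) and rank 3465. Its etoposide peak had 16 fragments (9.15 to 26.0) and rank 17950, the weakest of the 3 shared places in that list. The others had etoposide ranks of 8598 (7.70 kb upstream) and 13106 (inside the gene). A place 7.70 kb upstream had 20 untreated and 16 etoposide fragments. Inside the gene, 13.8 kb from the start at chr15:49436911-49437172, the untreated peak had 11 fragments and the etoposide peak 13.

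Peaks of a single library near FGF7 ranked in the weaker part of their lists. So did the untreated peak of the shared place inside the gene, at rank 30702. Single-library peaks of the untreated list lay inside the gene, 2.11 kb from the start with 14 fragments and 35.3 kb from the start with 11. The etoposide library had them 3.94 kb beyond the end with 15 fragments and 39.9 kb upstream with 7. FGF10 belongs to the same subfamily as FGF7 and acts on lung epithelium during branching and repair, and it had no peak in its window. The nearest summit lay 419 kb away in the untreated library with 6 fragments and 421 kb away in the etoposide library with 9.

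HGF, the ligand of the MET receptor, was the gene of this list at which all peaks were shared, 3 in each library on chromosome 7. A pair of neighbouring places lay beyond its end inside the RNA gene LOC100128317. The stronger, 14.1 kb from HGF at chr7:81684674-81685047, had 39 untreated fragments (27.7 to 53.3, rank 1382) and 24 etoposide fragments (15.4 to 35.7, rank 3180). The other, 13.7 kb away, had 29 and 18 fragments. The place inside the gene, 44.3 kb from the start at chr7:81725603-81725944, had 23 fragments (14.6 to 34.5) and rank 6759 in the untreated library. Its etoposide peak had 18 fragments (10.7 to 28.4) and rank 4695. Each interval overlaps that of the other library.

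VEGFC, the lymphangiogenic ligand of FLT4, had the most peaks of the 10 genes in the untreated library, 11 against 5 in the etoposide library. At least 11 untreated peaks were found near 1.88% of all genes, and at least 5 etoposide peaks near 8.39%. These shares are not matched for gene length, and VEGFC has the longest span of the 10 genes, 109 kb. Per Mb of window VEGFC had 52.5 untreated peaks, below the 64.3 of FGF5. In the etoposide library it had 23.9, below FGF5 (32.1), FGF7 (30.2) and FGF2 (29.1). All 5 etoposide peaks were shared, and the other 6 untreated peaks had no counterpart. Of the shared places, 2 were inside the gene. The stronger, 14.4 kb from the start at chr4:176778319-176778681, had 39 untreated fragments (27.7 to 53.3, rank 2902) and 19 etoposide fragments (11.4 to 29.7, rank 12852). The other, 23.1 kb from the start, had 23 and 14.

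Upstream of VEGFC, a shared place 46.2 kb from the gene at chr4:176838876-176839287 had 41 untreated (29.4 to 55.6) and 22 etoposide fragments (13.8 to 33.3). Next to it, 48.8 kb away, stood a place with 31 and 22. These 2 places and the stronger place inside the gene were the VEGFC peaks on more than 3 times the median untreated background, at 4.22 to 4.50 fragments, and their etoposide peaks stood on 2.27 to 2.61. The part of this background in the lower etoposide fragments was not tested. Beyond the end, 47.6 kb from the gene, the shared place had 13 and 14 fragments. The untreated peaks without counterpart included 2 just before the start. They lay 1.23 kb upstream at chr4:176794049-176794281 with 20 fragments (12.2 to 30.9) and 1.62 kb upstream at chr4:176794438-176794690 with 25 (16.2 to 36.9) and rank 9351, which made the latter the strongest single-library peak of VEGFC. The edge of the nearer peak was 877 bp from the promoter window printed above, and the nearest etoposide peak edge was 14216 bp from it. Inside the gene, the untreated peak at chr4:176735198-176735425, 57.6 kb from the start, had 16 fragments and no counterpart. A neighbouring pair without counterpart, at chr4:176743971-176744205 and chr4:176744340-176744726, had 13 fragments each. The last untreated peak without counterpart lay 42.3 kb beyond the end with 15.

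VEGFA, the principal angiogenic ligand for endothelial cells, had no untreated peak within 50 kb. The etoposide library had 2 weak peaks on chromosome 6 inside the RNA gene LOC105375070, both on the higher-coordinate side. At chr6:43798809-43799250, 12.7 kb from VEGFA, there were 8 fragments (3.45 to 15.8) and rank 22169 of 25739. At chr6:43809539-43809736, 23.1 kb away, there were 9 fragments and rank 17460. The nearest untreated summit lay just outside the window at 54.4 kb with 11 fragments and rank 31478, and it had no counterpart. CXCL12, the ligand of CXCR4 and ACKR3, was the reverse case. An untreated peak 35.3 kb beyond its end, at chr10:44334778-44335212, had 9 fragments (4.12 to 17.1) and rank 26025, and the nearest etoposide summit was 68.7 kb away. With 8 to 9 fragments these 3 peaks were under the median of their lists.

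Each PDGF receptor had a shared place inside the gene. PDGFRA had 2 untreated peaks and 1 etoposide peak and PDGFRB had 2 and 3, where the medians over all genes were 2 and 1. PDGFRB had the strongest peak near any of the 10 genes, 12.5 kb from its start at chr5:150142865-150143464, with 63 untreated fragments (48.4 to 80.6) and rank 395 of 32550. This peak was 600 bp wide. The etoposide list held 2 narrower peaks over it. The stronger, at chr5:150143188-150143414, had 22 fragments (13.8 to 33.3) and rank 4781, and the other, at chr5:150142858-150143053, had 21. The intervals of 63 and 22, also raw counts, do not overlap. The ratio of 22 to 63, 0.349, was the lowest among the 18 shared untreated peaks of the 10 genes and their best matches. The local background there was 5.19 fragments untreated and 1.98 with etoposide.

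The etoposide library alone had a peak 1.18 kb beyond the end of PDGFRB, inside the neighbouring CSF1R, which encodes the receptor of macrophage colony-stimulating factor. At chr5:150112552-150112761 it had 16 fragments (9.15 to 26.0) and rank 4163, the best rank among etoposide peaks without counterpart near the 10 genes. An untreated peak without counterpart, 48.3 kb beyond the end and also in CSF1R, had 11 fragments. At PDGFRA, the shared place 48.4 kb from the start at chr4:54277589-54278058 had 16 untreated fragments (9.15 to 26.0) and rank 17425. The etoposide peak had 13 (6.92 to 22.2), with its summit 322 bp away. That was the widest gap between the 18 shared untreated peaks of the 10 genes and their best matches, where the median was 41 bp. An untreated peak 11.5 kb upstream, with 11 fragments, had no counterpart.

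Taking the 18 shared untreated peaks together with their counterparts, 15 had fewer fragments in the etoposide library and 3 had more. Over all shared peaks 73.4% had fewer. The median ratio near the 10 genes was 0.618, from 0.349 to 1.18, beside the 0.778 of the whole lists. These 2 sets differ in strength: the median was 28.5 untreated fragments at the 18 peaks and 19 at all shared untreated peaks. The ratios were not matched for strength. A ratio under 0.5 occurred at 3 places, inside PDGFRB, FGF2 and VEGFC, and at 8.27% of all shared peaks. The Poisson intervals of the 2 libraries were apart at 2 of the 18, PDGFRB and FGF2. These are raw counts, not scaled for the typical ratio of 0.778, so intervals apart do not measure an effect of etoposide. How often such intervals were apart over all shared peaks was not counted, so these 2 have no background share beside them. The 3 places with more fragments after etoposide were inside FGF7, 30.8 kb upstream of FGF5 and 47.6 kb beyond VEGFC, each by 1 or 2 fragments. In that order their ranks were 30702, 17595 and 20410 in the untreated list. In the shorter etoposide list they were 13106, 3148 and 8128. Local background was lower in the etoposide library at 17 of the 18, and at 14967 of all 16610 shared peaks. The median background ratio was 0.628 near the 10 genes and 0.687 over all shared peaks. The part of local background in the lower summit counts was not tested.

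**Figure D3:**
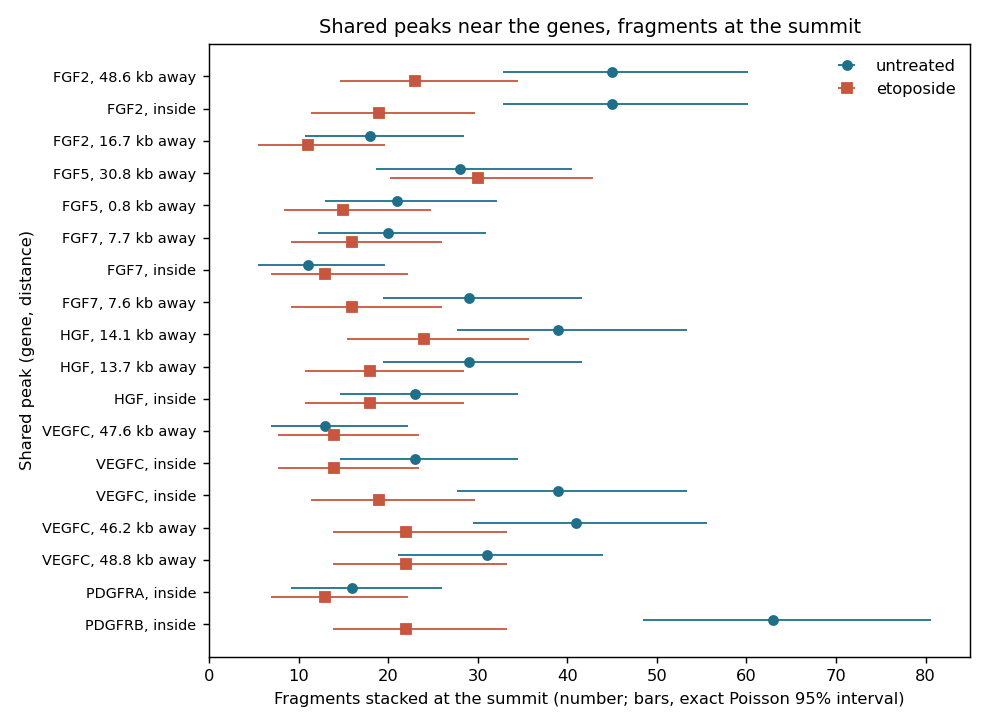
Fragments stacked at the summit (x axis) of the 18 shared peaks, named by gene and distance (y axis), untreated as blue circles and etoposide as red squares, with exact Poisson 95% intervals that cover counting error only. The intervals are apart at PDGFRB (63 and 22 fragments) and at the FGF2 place inside the gene (45 and 19), and they overlap at the other 16 places. Counts are not scaled between the libraries, and the share of all shared peaks with intervals apart was not counted.

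Shared peaks had better median ranks than peaks of a single library. The median position in the list, counted from the strongest, was 20.4% for shared and 67.6% for single untreated peaks near the 10 genes, and 31.6% and 80.2% for etoposide. The whole lists had the same order, with 31.6% and 66.0% untreated and 37.9% and 67.8% etoposide. Among the 38 untreated peaks 4 were in the top 5% of their list, near PDGFRB, FGF2 (2 peaks) and HGF, and among the 28 etoposide peaks 0 were.

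**Figure D4:**
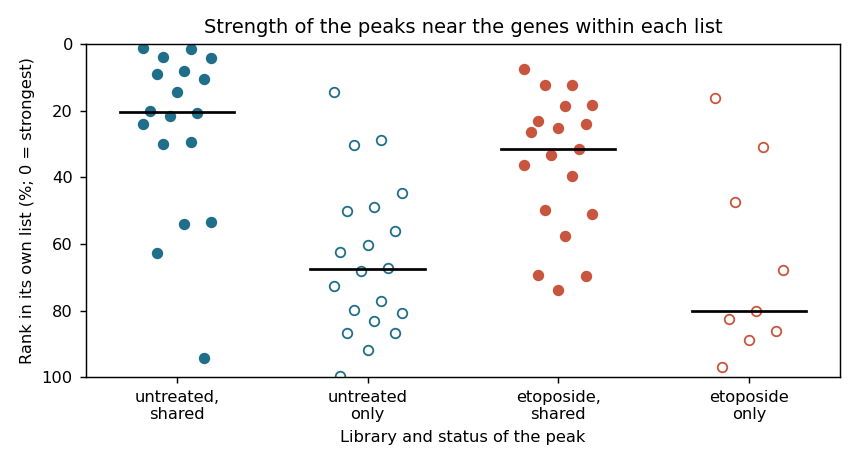
Rank of each peak near the 10 genes within its own list, as a percent of the list with the strongest at 0 (y axis), by library and sharing (x axis); black lines are medians. The medians are 20.4% and 67.6% for shared and single untreated peaks and 31.6% and 80.2% for etoposide peaks, and single peaks are spread down to the weak end of both lists.

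Just inside the 50 kb limit were the shared places 48.9 kb from VEGFC and 48.6 kb from FGF2 described above. Just outside were shared places 53.1 kb from PDGFRB, with 12 untreated and 7 etoposide fragments, and 53.1 kb from FGF5, with 44 and 32, the latter at rank 526 in the untreated list.

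Other ligands and receptors of the same pathways, and the FGF-binding protein FGFBP1, were counted in the same way, 26 genes in all. Untreated peaks lay within 50 kb of 21 of them (80.8%), etoposide peaks near 20 (76.9%), and 19 had both, beside the 72.0% (untreated) and 62.6% (etoposide) of all genes. Among 13 ligands the numbers were 13 and 12, and among 12 receptors 7 and 7. No peak of either library lay within 50 kb of 4 of the 26 genes, FGFR2, KDR, CXCR4 and ACKR3, and 23.9% of all genes had none. CXCR4 and ACKR3 are the receptors of CXCL12. MET, the HGF receptor, had 5 untreated and 7 etoposide peaks, the best at rank 327 and 217. FGFR1, the main FGF receptor of fibroblasts, had 4 in each library, all shared. Near PDGFC, a ligand of PDGFRA, there were 12 and 10. NRP1, a co-receptor for VEGF ligands, had 11 and 12. MET, PDGFC and NRP1 are long genes, with spans of 126, 211 and 157 kb against a median of 24.2 kb over all genes. Their counts are not matched for length. Within 10 kb, 15 of the 26 had an untreated and 12 an etoposide peak, against 49.6% and 38.9% of all genes, and 10 had neither, as did 45.8% of all genes. FGF9, FGF16, VEGFB and VEGFD had a summit there in the untreated library alone, which was true of 15.3% of all genes, and FGF18 in the etoposide library alone, true of 4.61%. Within that distance 7 of the 10 main genes had a peak in each library, the same 7 that had a shared place.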

How the data were processed

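The data were 2 deposited peak lists in narrowPeak layout, 1 per library, grouped by the treatment label. Bowtie2, MACS2 and the builds hg38 and mm10 are named in the submitters' processing notes, with no role or order, and settings, versions and any control library are not given in the sources used here. The deposited fold (ratio of summit signal to local background), -log10 p, -log10 q and score of each peak are the authors' own values. They were used to describe and rank peaks within a list. Peaks on chromosomes 1 to 22 and X were kept, 32550 of 33491 and 25739 of 26590. Positions count from 1 on GRCh38. Gene spans and promoter sequences came from RefSeq (GRCh38.p14), which gave no exons, so positions inside genes are not split into exons and introns.

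A fold of (k + 1)/(b + 1) and the Poisson tail above k at mean b returned whole fragment numbers k for 100% of peaks of either list, to within 0.001 in -log10 p. This recovery was tested on simulated data. Poisson and exact (Clopper-Pearson) 95% intervals cover counting error only, and PCR copies were not separated. Python 3.11.15, pandas 2.3.3 and SciPy 1.17.1 were used. All peaks within 10 kb of a gene, the strongest shared place and the strongest single-library peaks of each window were described singly. The genes and lists were chosen with earlier results of these data known. Alternatives were other windows, stricter lists, assignment to the nearest gene and other definitions of sharing.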

Additional observations from a re-analysis of the deposited data

How the results depend on the processing

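With a single library per condition no result has a replicate check, and no paired analysis was possible because each condition has 1 library. Each count was recomputed under 6 settings and each shared share under 8, of which the limit on local background was chosen after seeing the data. The number of genes with a peak stayed between 6 and 9 of 10 in either library. The number of peaks moved with the window and with the length of the list: within 10 kb there were 19 untreated and 14 etoposide peaks, within 100 kb 64 and 51, and among the 10000 strongest peaks of each list 17 and 14. Assigning a peak only to its nearest protein-coding gene left 28 and 20. The shared share of untreated peaks ranged from 36.8%, with overlap of at least 50% of both peaks required, to 52.9%. For etoposide it ranged from 50%, under that rule and without peaks on more than 3 times the median local background, to 78.6% within 10 kb. All these shares lay inside the interval of the main value. The settings draw on largely the same peaks and the intervals are wide, so this is a weak check. The etoposide-only call at VEGFA and the untreated-only call at CXCL12 rest on the 50 kb limit: within 100 kb VEGFA had an untreated and CXCL12 an etoposide peak. Read depth is not part of the lists, so how it limits the calls was not tested, and the peaks near these genes with the fewest fragments had 7 to 9.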

Other observations

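Among the other genes of these pathways, some had stronger JUNB peaks in their window than most of the 10 genes, and those named here were chosen after their values were seen. PDGFA, a ligand of PDGFRA, had a single place within 50 kb, shared by both libraries, at rank 566 in the untreated and 627 in the etoposide list. FGF1, the acidic fibroblast growth factor, had 7 untreated and 5 etoposide peaks, 4 of them shared in each list, with best ranks of 694 and 347. FGFBP1, which releases FGF ligands from the matrix, had 3 peaks in each library, all shared, with best ranks of 1310 and 449, and none within 10 kb. FLT4, the receptor of VEGFC, had an etoposide peak alone, at rank 3225.

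The untreated PDGFRB peak was the only one of the 18 shared untreated peaks near the 10 genes that was matched by 2 etoposide peaks. Over the whole lists 491 of 16610 shared untreated peaks (2.96%) were the best match of 2 or more etoposide peaks.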
